A study of Mus musculus with 10 samples.

Results

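The genes described here are 41 lysosome and autophagy genes of the mouse, taken as a named set by symbol: 9 lysosomal proteases, 6 glycosidases, 6 lipid hydrolases and other soluble proteins of the lysosomal lumen, 5 lysosomal membrane proteins, 2 sorting receptors, 6 genes of the proton pump and 7 autophagy genes. The deposited tables hold 8251 named genes. RNA was measured in cortical neurons of Swiss albino mouse foetuses taken at gestation day 15 to 16, grown for 5 days in vitro and then exposed to 1 µM lactacystin, which blocks the proteasome, in a serum-free medium. There were 3 arrays of lactacystin at 24 h and 2 of control at 24 h, and 3 arrays of lactacystin at 48 h and 2 of control at 48 h. All cultures came from the same stock of mice, and the labels give no genetic change in any group. The labels do not say whether controls received the DMSO in which the compound was dissolved. They also leave unstated whether the replicates of a group are independent cultures, and the p-values below therefore reflect variation among arrays that could be technical. Arrays were of the Affymetrix designs U74A (lactacystin 24 h replicate 1, control 24 h replicate 1, lactacystin 48 h replicate 3 and control 48 h replicate 1) and U74Av2 (the other 6).

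A probe set annotated with a single symbol was found for 40 members, and Atp6v0c had none. Probe sets on both designs covered 34 members, of which Ctsh, M6pr and Ppt1 lay under a filter on low signal, so 31 were tested among 5541 named genes. The remaining 6 (Gaa, Npc2, Lamp1, Cd63, Map1lc3b and Becn1) were on U74Av2 only and were fitted separately on 6 arrays. Signals are given in arbitrary units after each array was scaled to a trimmed mean of 500. Log2 changes are differences of log2(signal + 32), adjusted for array design and given with their standard error (SE), and this scale understates changes of low signals. A change was called at an adjusted p under 0.05 (limma, Benjamini-Hochberg over all 6984 probe sets tested). Median signals of the arrays ran from 141 to 234, and the ratio of 3′ to 5′ signal of Gapdh was 0.723 to 0.790 on U74A and 1.55 to 3.48 on U74Av2. At 24 h on U74Av2 this ratio was 2.66 and 2.38 under lactacystin, against 1.62 in the control. At 48 h it was 3.48 and 1.55, against 2.48. The 6 members on U74Av2 only, with Cd63 and Npc2 among them, rest on these arrays, and the part of this difference in their changes was not tested.

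Lysosomes are acidic organelles in which proteases, glycosidases and lipid hydrolases break down material delivered by endocytosis and autophagy. A proton pump, the V-ATPase, keeps them acidic, and membrane glycoproteins such as Lamp2 line them. Autophagy encloses cytoplasm in a double membrane, with receptors such as Sqstm1 binding ubiquitinated cargo and proteins of the Gabarap and LC3 families on the membrane. Many of these genes carry an E-box, called a CLEAR element, that the transcription factor TFEB binds. Neurons divide no further and rely on the proteasome and on this pathway to clear protein, and loss of several of the enzymes causes storage disease of the brain.

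Promoter windows are shown for members whose transcripts differed in what they did: Ctsd and Ctsa, proteases with a CLEAR-type match, Atp6v1a, a pump subunit with such a match, and Lamp2, a membrane protein, and Sqstm1, an autophagy receptor, with none. Each holds the 250 bases before the start site, taken from RefSeq on GRCm38.p6 and written 5′ to 3′ on the gene's strand, and capitals mark TCACGTG or its reverse complement CACGTGA. The windows are chr7:142387828-142388077 on the minus strand for Ctsd, chr2:164833523-164833772 on the plus strand for Ctsa, chr16:44139260-44139509 on the minus strand for Atp6v1a, chrX:38456461-38456710 on the minus strand for Lamp2 and chr11:50210821-50211070 on the minus strand for Sqstm1.
Ctsd: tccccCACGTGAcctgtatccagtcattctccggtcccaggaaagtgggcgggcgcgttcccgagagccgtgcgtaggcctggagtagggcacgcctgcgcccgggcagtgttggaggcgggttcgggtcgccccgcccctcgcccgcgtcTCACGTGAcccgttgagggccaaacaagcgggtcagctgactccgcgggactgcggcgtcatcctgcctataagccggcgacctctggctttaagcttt
Ctsa: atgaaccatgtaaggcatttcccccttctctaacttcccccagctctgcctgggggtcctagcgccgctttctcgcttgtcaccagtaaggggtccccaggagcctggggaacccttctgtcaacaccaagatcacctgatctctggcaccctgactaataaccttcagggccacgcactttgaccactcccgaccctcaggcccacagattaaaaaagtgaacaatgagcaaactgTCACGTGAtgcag
Atp6v1a: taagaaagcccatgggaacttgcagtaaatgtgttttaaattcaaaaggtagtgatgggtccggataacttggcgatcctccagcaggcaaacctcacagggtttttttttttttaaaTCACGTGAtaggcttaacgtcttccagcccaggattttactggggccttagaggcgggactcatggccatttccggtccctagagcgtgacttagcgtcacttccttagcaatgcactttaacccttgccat
Lamp2: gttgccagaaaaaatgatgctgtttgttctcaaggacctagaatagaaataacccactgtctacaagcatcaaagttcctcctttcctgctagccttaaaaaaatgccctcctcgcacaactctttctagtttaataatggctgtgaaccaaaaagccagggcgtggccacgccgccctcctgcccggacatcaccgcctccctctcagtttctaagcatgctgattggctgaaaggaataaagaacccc
Sqstm1: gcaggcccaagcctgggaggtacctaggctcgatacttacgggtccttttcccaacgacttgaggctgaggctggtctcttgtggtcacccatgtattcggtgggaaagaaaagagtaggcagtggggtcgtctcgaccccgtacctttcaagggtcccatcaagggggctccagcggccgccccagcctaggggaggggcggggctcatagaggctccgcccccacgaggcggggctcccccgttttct

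Windows of 300 bases (250 before and 50 after the start site) were found for 34 of the 41 members. TCACGTG, on either strand, was in 10 of the 34 (29.4%) and in 4.29% of 27025 genes with a window. The 10 were Ctsa, Ctsd, Lgmn, Gla, Glb1, Gaa, Lamp1, Igf2r, Atp6v0d1 and Atp6v1a. Lamp1 held 4 separate matches, at 62, 45, 28 and 16 bases before its start site, the most of any member. The core E-box CACGTG, which every TCACGTG match contains, was in 12 of the 34 (35.3%) and in 8.09% of genes. The antioxidant response core TGACNNNGC was in 8 members (23.5%) and 14.0% of genes, and the AP-1 site TGACTCA in 2 members (5.88%) and 5.95% of genes. A match of letters is a description and shows no binding.

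Among the 31 members tested on both designs, those called under lactacystin were higher than in controls. Most of those called encode proteins of the lysosomal lumen, but so do most of the 31. These include 8 proteases, 5 glycosidases and 4 lipid hydrolases and soluble lumenal proteins. At 24 h, 8 of the 31 tested members were called higher, where 8.66% of all named genes were, and 0 lower, where 6.68% were. At 48 h, 9 of 31 were called higher against a background of 7.13%, and 0 lower against 3.7%. In limma at an unadjusted p under 0.05, 10 members were higher and 0 lower at 24 h, and 16 were higher and 2 lower at 48 h. Ctsc, Ctsd, Hexa, Asah1 and Lamp2 were called at both times. All 3 lactacystin arrays lay above both controls for 11 of the 31 members at 24 h, against 18.1% of named genes, and for 15 of 31 at 48 h, against 17.6%. They lay below both for 3 members at each time, against 19.1% and 10.6%. The median log2 change of the 31 members was 0.16 at 24 h and 0.35 at 48 h, against -0.03 and 0.04 over all named genes. With arrays scaled by their median, the 48 h medians were 0.18 for the members and -0.11 for all named genes, and 7 members were then called higher and 2 lower. In RNA of whole cultures, fewer cells of a type and less RNA per cell cannot be told apart.

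**Figure D1:**
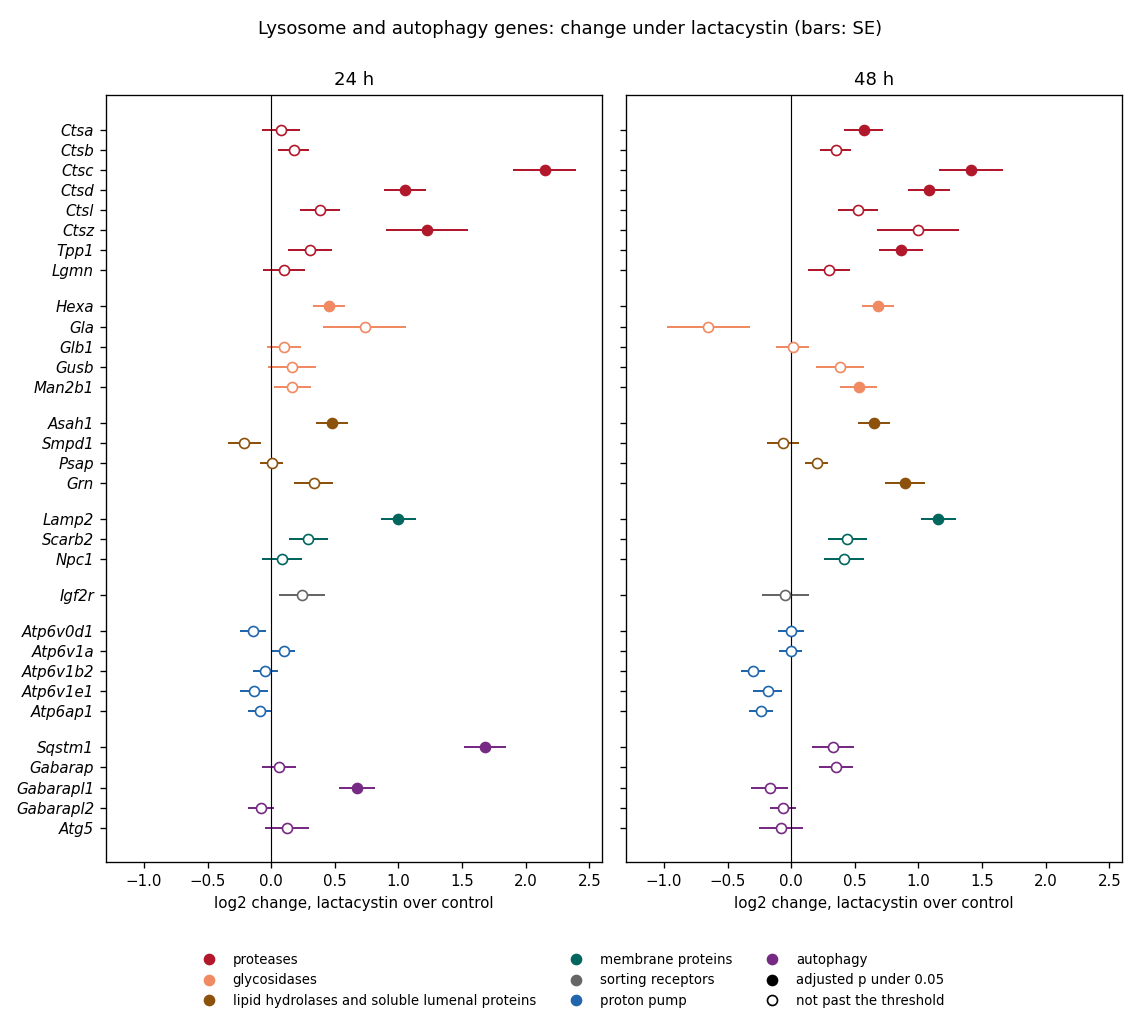
Log2 change, lactacystin over control, of each of the 31 tested members at 24 h (left panel) and 48 h (right panel), with bars of 1 SE; colours give the class and filled points have an adjusted p under 0.05 (limma). Proteases, Hexa, Asah1 and Lamp2 lie to the right of 0, the 5 pump genes lie between -0.30 and 0.10 at both times, and Sqstm1 lies at 1.68 at 24 h and at 0.33 at 48 h.

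Of the 8 tested proteases, 3 were called higher at 24 h and 4 at 48 h, and all 8 had a log2 change above 0 at both times. Ctsd (probe set 93810_at), the main aspartic protease of lysosomes, had signals of 5154, 3483 and 3593 on the lactacystin arrays at 24 h, against 2066 and 1917 in controls. Every lactacystin array was above both controls, and replicate 1, on U74A, was the highest. At 48 h they were 3257, 4818 and 4226 under lactacystin and 2371 and 1637 in controls, again without overlap. The log2 change was 1.05 ± 0.17 at 24 h (adjusted p = 0.00176) and 1.08 ± 0.17 at 48 h (adjusted p = 0.00238), about 2.07-fold and 2.11-fold. It was 1.31 on the U74A arrays and 0.87 on the U74Av2 arrays at 24 h and 0.83 on the U74A arrays and 1.26 on the U74Av2 arrays at 48 h, so the level was raised in each design.

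Ctsc (101019_at), which trims dipeptides and activates other proteases, had low signals, and 3 of its 4 control arrays lay under 54.8, the mean signal used as the filter. They were 414, 156 and 195 under lactacystin at 24 h, against 65.5 and 14.7 in controls, and 50.8, 120.3 and 176 at 48 h, against 46.2 and 11.1. The filter used the mean over all arrays, and the controls alone average under it. Ctsc was thus tested only through its lactacystin arrays, and the counts of called members above include it. The groups did not overlap at either time, and in both control groups the U74A array was the higher one. The log2 change was 2.15 ± 0.25 at 24 h (adjusted p = 0.000239) and 1.41 ± 0.25 at 48 h (adjusted p = 0.00514). Within designs it was 2.19 on the U74A arrays and 2.15 on the U74Av2 arrays at 24 h and 1.41 on the U74A arrays and 1.38 on the U74Av2 arrays at 48 h. Since the control signals were low, the size depends on the constant added before the log: it was 2.52 and 1.75 with 16 and 1.70 and 1.05 with 64, called each time. Another shared probe set of Ctsc lay under the filter on low signal.

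Ctsz (92633_at), a carboxypeptidase, had 337, 83.2 and 90.0 under lactacystin at 24 h, against 75.4 and 30.9 in controls, with no overlap and with replicate 1 far above the other two lactacystin arrays. Its change of 1.22 ± 0.32 was called (adjusted p = 0.0251) and was 1.78 on the U74A arrays and 0.92 on the U74Av2 arrays. The call ended without lactacystin 24 h replicate 1, where the change was 0.83 (adjusted p = 0.126), and without either 24 h control (0.142 and 0.160). At 48 h signals were 87.6, 208 and 212 under lactacystin and 96.2 and 56.5 in controls, which overlapped, and the change of 1.00 ± 0.32 was not called (adjusted p = 0.0723).

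Tpp1 (93595_at), a tripeptidyl peptidase whose loss causes a childhood neuronal ceroid lipofuscinosis, was called at 48 h. Its signals then were 1135, 1291 and 1074 under lactacystin, against 601 and 665 in controls, and at 24 h 1037, 766 and 637 under lactacystin, against 672 and 622. The groups were apart at 48 h and overlapped at 24 h. The change was 0.31 ± 0.17 at 24 h (adjusted p = 0.265) and 0.86 ± 0.17 at 48 h (adjusted p = 0.0100), at 48 h 0.80 on the U74A arrays and 0.83 on the U74Av2 arrays. Ctsa (101055_at), a carboxypeptidase that also stabilises beta-galactosidase and neuraminidase, had 606, 784 and 877 under lactacystin at 48 h, against 543 and 481 in controls, and 696, 460.0 and 459 at 24 h, against 526 and 509.6. Only at 48 h were the groups apart, with a change of 0.57 ± 0.15 (adjusted p = 0.0363), against 0.08 ± 0.15 at 24 h (adjusted p = 0.781). The 48 h call of Ctsa was lost in 13 of 22 alternative settings, among them median scaling (adjusted p = 0.116), quantile normalisation (0.0711), no filter on low signal (0.0612) and the arrays of 48 h alone (0.0670).

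Ctsl, Ctsb and Lgmn were not called through the probe set that stood for each gene. Ctsl, a cysteine protease, had changes of 0.38 ± 0.16 at 24 h (adjusted p = 0.129) and 0.52 ± 0.16 at 48 h (adjusted p = 0.0566), and was called at 48 h without lactacystin 48 h replicate 3 (0.73, adjusted p = 0.0116). Lgmn, which cleaves after asparagine and processes cathepsins, had 0.10 ± 0.16 and 0.30 ± 0.16 (adjusted p = 0.732 and 0.295). For the cysteine protease Ctsb the probe sets disagreed. Its set of highest signal, 94831_at, changed by 0.18 ± 0.12 and 0.35 ± 0.12 (adjusted p = 0.374 and 0.100). Set 92256_at changed by 0.78 ± 0.18 and 0.80 ± 0.18 and was called at both times (adjusted p = 0.0126 and 0.0154), and set 95608_at by 0.69 ± 0.18 at 48 h (adjusted p = 0.0348). Which of these sets reads all Ctsb transcripts is not given in the sources used here.

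Of 5 tested glycosidases, 1 was called higher at 24 h and 2 at 48 h. Hexa (94840_at), the alpha subunit of beta-hexosaminidase, whose loss causes Tay-Sachs disease, had 477, 476 and 489 under lactacystin at 24 h, against 302 and 371 in controls. At 48 h it had 637, 702 and 587 under lactacystin, against 347 and 415. All lactacystin arrays were above both controls at each time, and at 24 h they were nearly equal. The change was 0.45 ± 0.12 at 24 h (adjusted p = 0.0310) and 0.68 ± 0.12 at 48 h (adjusted p = 0.00610), and within designs 0.61 on the U74A arrays and 0.35 on the U74Av2 arrays at 24 h and 0.71 on the U74A arrays and 0.65 on the U74Av2 arrays at 48 h. The 24 h call ended without any 1 of the 5 arrays of that time (adjusted p = 0.0602 to 0.157).

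Man2b1 (99562_at), the lysosomal alpha-mannosidase, had 371, 484 and 501 under lactacystin at 48 h, against 338 and 279.9 in controls, with no overlap. At 24 h it had 329.6, 281 and 261 under lactacystin, against 264 and 259, and one lactacystin array lay among the controls. Its change was 0.53 ± 0.15 at 48 h (adjusted p = 0.0398) and 0.16 ± 0.15 at 24 h (adjusted p = 0.488). The 48 h call was also lost in 13 of 22 settings, among them median scaling (adjusted p = 0.111), quantile normalisation (0.0970), no filter on low signal (0.0696) and the arrays of 48 h alone (0.0858). Gusb, beta-glucuronidase, had 136, 176 and 176 under lactacystin at 48 h, against 140.0 and 101, and 116, 81.8 and 89.4 at 24 h, against 78.6 and 89.2. Its groups overlapped at both times, and neither the 24 h change of 0.16 ± 0.19 nor the 48 h change of 0.39 ± 0.19 was called (adjusted p = 0.605 and 0.230).

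The galactosidases gave no call. Glb1, beta-galactosidase, had changes of 0.10 ± 0.13 at 24 h and 0.01 ± 0.13 at 48 h (adjusted p = 0.650 and 0.971), with 95% intervals of -0.18 to 0.39 and -0.27 to 0.30. Gla, alpha-galactosidase, had 0.74 ± 0.33 at 24 h and -0.65 ± 0.33 at 48 h (adjusted p = 0.160 and 0.246), and its signals on single arrays ran from 6.08 to 154. Gaa, the acid alpha-glucosidase, was on U74Av2 only and had 1507 and 1444 on the lactacystin arrays at 24 h, against 1498 on the control array, and 1332 and 1244 at 48 h, against 1213. Its changes were -0.02 ± 0.11 and 0.08 ± 0.11 (adjusted p = 0.939 and 0.713).

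**Figure D2:**
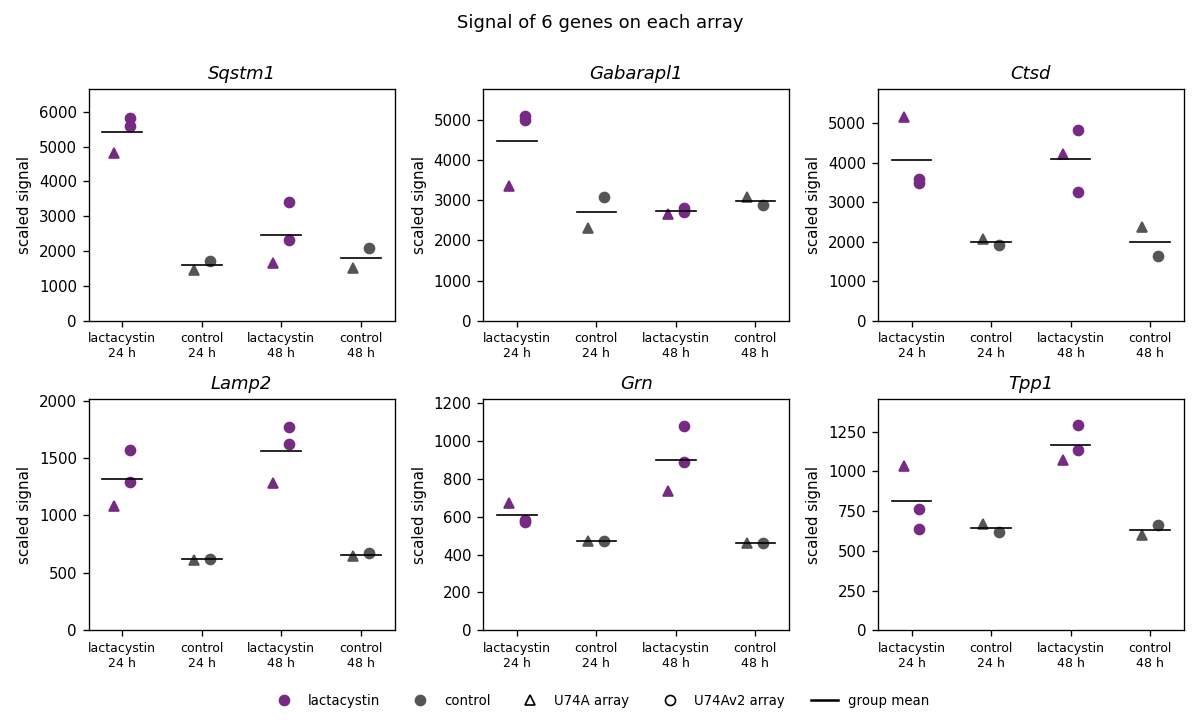
Scaled signal (arbitrary units) of 6 members on each array, with lactacystin in purple left of control in grey at each time, triangles for U74A, circles for U74Av2 and lines at the group mean. Ctsd and Lamp2 are apart from controls at both times, Grn and Tpp1 most clearly at 48 h, and Sqstm1 and Gabarapl1 at 24 h, where Sqstm1 reached 4828 to 5827 against 1446 and 1726 in controls.

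Among lipid hydrolases and soluble lumenal proteins, 1 of 4 tested was called higher at 24 h and 2 at 48 h. Asah1 (94282_at), acid ceramidase, had 554, 569 and 562 under lactacystin at 24 h, against 349.5 and 428 in controls, and 694, 759 and 604 at 48 h, against 404 and 427. The groups were apart at both times. Its change was 0.48 ± 0.12 at 24 h (adjusted p = 0.0235) and 0.65 ± 0.12 at 48 h (adjusted p = 0.00722), and within designs 0.62 on the U74A arrays and 0.38 on the U74Av2 arrays at 24 h and 0.55 on the U74A arrays and 0.72 on the U74Av2 arrays at 48 h. The 24 h call ended without any 1 of the 5 arrays of that time (adjusted p = 0.0562 to 0.138).

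Grn (93066_at), progranulin, a secreted and lysosomal protein whose loss causes dementia or ceroid lipofuscinosis in humans, had 889, 1081 and 734 under lactacystin at 48 h, against 462 and 460.5 in controls. At 24 h it had 672, 573 and 585 under lactacystin, against 472 and 473. The lactacystin arrays were above both controls at each time, and the controls lay close together. The change was 0.89 ± 0.16 at 48 h (adjusted p = 0.00475), where it was 0.63 on the U74A arrays and 1.04 on the U74Av2 arrays, and 0.33 ± 0.16 at 24 h, not called (adjusted p = 0.178).

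Psap (97114_at), the precursor of the saposins that help lipid hydrolases reach their substrates, had 5370.5, 5069.6 and 4507 under lactacystin at 48 h, against 4171 and 4333 in controls, with no overlap. At 24 h it had 3586, 4173 and 3933 under lactacystin, against 3713 and 3920.5, with overlap. The changes were 0.20 ± 0.09 at 48 h and 0.00 ± 0.09 at 24 h, and neither was called (adjusted p = 0.195 and 0.984). Another set for Psap, 97560_at, read 364 to 504 on U74A and 6.03 to 42.1 on U74Av2, so its signal followed the array design. Smpd1, acid sphingomyelinase, had -0.21 ± 0.13 at 24 h and -0.06 ± 0.13 at 48 h (adjusted p = 0.298 and 0.815).

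Npc2, a lumenal protein that hands cholesterol to Npc1, was measured on U74Av2 alone, with 1 control array at each time. It had 1648 and 1657 under lactacystin at 24 h, against 2343 in the control, and 2201 and 2315 at 48 h, against 1854. It was lower than its control at 24 h and higher at 48 h. In the fit of the whole U74Av2 table, where 8.21% of 6466 named genes were called at 24 h, 5.12% higher and 3.09% lower, the 24 h change of -0.49 ± 0.10 was called (adjusted p = 0.0420) and the 48 h change of 0.28 ± 0.10 was not (adjusted p = 0.176). The call ended without lactacystin 24 h replicate 2 or 3 (adjusted p = 0.284 and 0.267). That fit left 2 residual degrees of freedom, and the lone control arrays are assumed to vary like the other groups.

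Of the membrane proteins, Lamp2 was higher at both times and Cd63 too, on the arrays that held it, while Npc1 and Scarb2 were not called. Lamp2 (101590_at), a glycoprotein of the lysosomal membrane needed for fusion with autophagosomes, had 1087, 1289 and 1568 under lactacystin at 24 h, against 613 and 621 in controls. At 48 h it had 1627, 1776 and 1284 under lactacystin, against 643 and 674. The controls of both times lay within 613 to 674, and the lactacystin arrays between 1087 and 1776. Its change was 1.00 ± 0.14 at 24 h (adjusted p = 0.000768) and 1.15 ± 0.14 at 48 h (adjusted p = 0.000480), with 95% intervals of 0.70 to 1.30 and 0.86 to 1.45. Within designs it was 0.79 on the U74A arrays and 1.15 on the U74Av2 arrays at 24 h and 0.96 on the U74A arrays and 1.29 on the U74Av2 arrays at 48 h. A second probe set, 100136_at, rose by 1.06 ± 0.18 and 1.27 ± 0.18 (adjusted p = 0.00312 and 0.00169).

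Cd63, a tetraspanin of late endosomes, lysosomes and exosomes, had 3408 and 3366 under lactacystin at 24 h, against 1582 in the control array. At 48 h it had 4066 and 5126 under lactacystin, against 1975. Both lactacystin arrays were above the control at each time. The change was 1.09 ± 0.15 (adjusted p = 0.0124) and 1.19 ± 0.15 (adjusted p = 0.0173), where 5.47% of named genes of that fit were called at 48 h, 3.57% higher and 1.9% lower. The 24 h call ended without lactacystin 24 h replicate 2 or 3 (adjusted p = 0.0748 and 0.0645). Lamp1, the abundant relative of Lamp2, had 0.26 ± 0.10 and 0.27 ± 0.10 on the same arrays, not called (adjusted p = 0.182 and 0.178). Without lactacystin 48 h replicate 1 or 2 its 24 h change stayed at 0.26 and passed the threshold only through the estimated spread, which rested on fewer arrays. Without replicate 1 its 48 h change was 0.35 and passed, with 1 lactacystin array left at 48 h.

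Scarb2, the receptor that carries glucocerebrosidase to lysosomes, had 0.29 ± 0.15 at 24 h and 0.44 ± 0.15 at 48 h (adjusted p = 0.228 and 0.0937). Npc1, the membrane protein that exports cholesterol, had 0.08 ± 0.16 and 0.41 ± 0.16 (adjusted p = 0.766 and 0.123). Igf2r, a mannose 6-phosphate receptor that sorts new hydrolases to lysosomes, had 486, 737 and 798 under lactacystin at 24 h, against 556 and 531, and 557, 478 and 504 at 48 h, against 571 and 477. Both comparisons overlapped. Its changes of 0.24 ± 0.18 and -0.05 ± 0.18 were not called (adjusted p = 0.407 and 0.917), and without lactacystin 24 h replicate 1 the 24 h change was 0.51 and was called (adjusted p = 0.0486).

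None of the 5 tested proton pump genes was called at either time in limma, and at an unadjusted p under 0.05 there were 0 at 24 h and 2, both lower, at 48 h. Changes ran from -0.14 to 0.10 at 24 h and from -0.30 to -0.00 at 48 h. Atp6v1b2 (92598_at), a subunit of the part that splits ATP, had 4334, 4751 and 4372 under lactacystin at 48 h, against 5546 and 5452 in controls. All 3 lactacystin arrays were below both controls. At 24 h the signals overlapped, with 4337, 5014 and 4993 under lactacystin, against 5008 and 4782. The change was -0.30 ± 0.10 at 48 h (adjusted p = 0.0695) and -0.05 ± 0.10 at 24 h (adjusted p = 0.796). A second set of this gene, 92597_s_at, was not called at either time. Over the alternative settings and that set, the 48 h change ran from -0.47 to -0.10.

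Atp6ap1, an accessory subunit, was the other pump gene with an unadjusted p under 0.05 in limma at 48 h, at -0.24 ± 0.10 (adjusted p = 0.149). All 5 tested pump genes had a log2 change under 0 at that time. With arrays scaled by their median both were called lower at 48 h, Atp6v1b2 at -0.47 (adjusted p = 0.0125) and Atp6ap1 at -0.40 (adjusted p = 0.0258), and Atp6v1b2 was also called without lactacystin 24 h replicate 1 (adjusted p = 0.0400). Atp6v1a (95746_at), the catalytic subunit, had 0.10 ± 0.09 at 24 h and -0.00 ± 0.09 at 48 h, with 95% intervals of -0.10 to 0.29 and -0.20 to 0.19. Those intervals exclude a change of the size seen for Lamp2 or Ctsd in the same cultures. Other sets of Atp6v1a, 95744_at and 95745_g_at, were not called against control at either time. The intervals of Atp6v0d1, of the membrane part, were -0.36 to 0.08 and -0.22 to 0.22, and those of Atp6v1e1, of the stalk, -0.38 to 0.11 and -0.43 to 0.06.

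**Figure D3:**
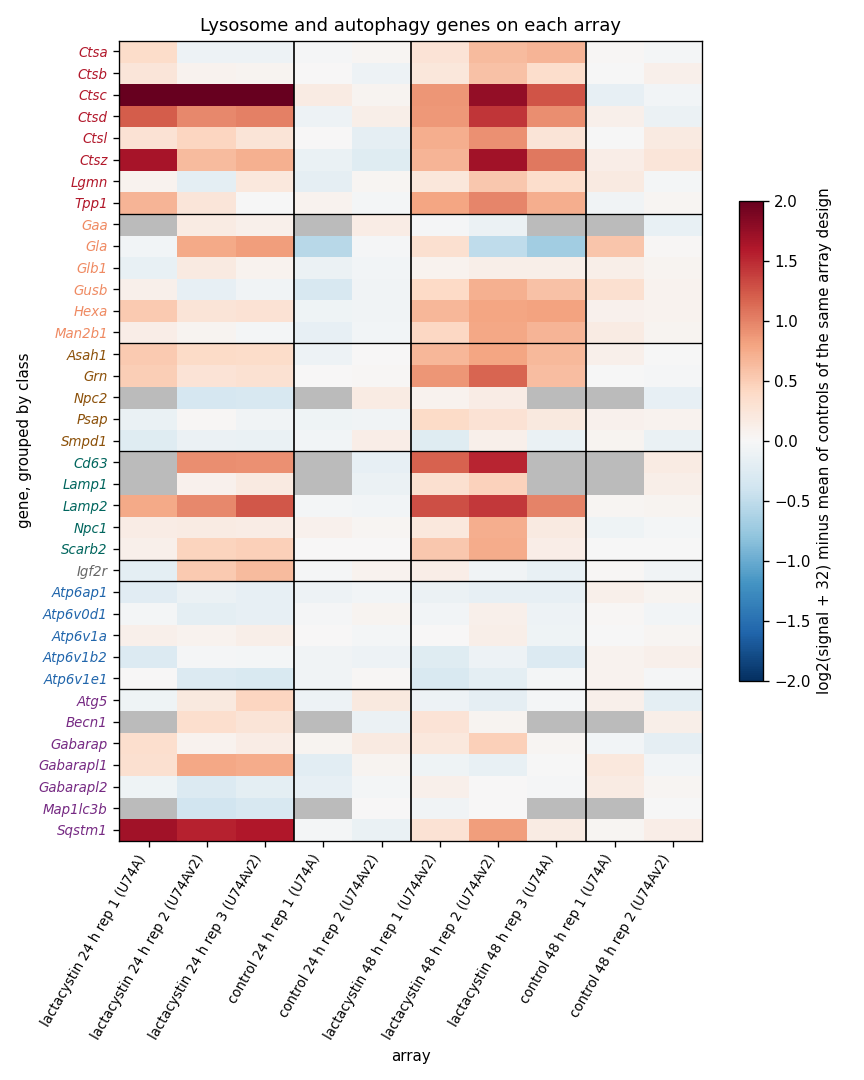
Log2(signal + 32) of 37 members on each array minus the mean of the controls of the same array design, from blue (lower) to red (higher), with the scale ending at 2 in either direction, rows grouped by class and grey where an array held no probe set. Lactacystin columns stand left of the control columns of their time; the red rows of Ctsc, Ctsd, Lamp2 and Cd63 run through both times, and those of Sqstm1 and Gabarapl1 are strongest at 24 h.

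Of the 5 tested autophagy genes, 2 were called higher at 24 h and 0 at 48 h, where 1 had an unadjusted p under 0.05 in limma. Sqstm1 (101995_at), the receptor that links ubiquitinated proteins to autophagosomes, had 4828, 5599.5 and 5827 under lactacystin at 24 h, against 1446 and 1726 in controls. The lowest lactacystin array was far above both controls. At 48 h it had 2318, 3406 and 1666 under lactacystin, against 1522 and 2088, and the groups overlapped. The change was 1.68 ± 0.16 at 24 h, 3.21-fold (adjusted p = 8.98e-05), and 0.33 ± 0.16 at 48 h, not called (adjusted p = 0.245). At 24 h it was 1.72 on the U74A arrays and 1.71 on the U74Av2 arrays.

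Gabarapl1 (93011_at), a ubiquitin-like protein of the autophagosome membrane, had 3361, 5112 and 5011 under lactacystin at 24 h, against 2321 and 3087 in controls. All lactacystin arrays were above the controls, with replicate 1, on U74A, the lowest of them and the U74A control the lower control. At 48 h it had 2819, 2703 and 2664 under lactacystin, against 3088 and 2884, and all lactacystin arrays were just below the controls. The change was 0.67 ± 0.14 at 24 h (adjusted p = 0.00908) and -0.17 ± 0.14 at 48 h (adjusted p = 0.529). Within designs it was 0.53 on the U74A arrays and 0.71 on the U74Av2 arrays at 24 h. The 24 h call ended without control 24 h replicate 1 or 2 (adjusted p = 0.0880 and 0.0589).

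The relatives of Gabarapl1 did not give a call. Gabarap had 0.06 ± 0.13 at 24 h and 0.35 ± 0.13 at 48 h (adjusted p = 0.792 and 0.124), and was called at 48 h without lactacystin 48 h replicate 3 (0.50, adjusted p = 0.0382). Gabarapl2 had -0.08 ± 0.10 and -0.07 ± 0.10 (adjusted p = 0.655 and 0.752). Map1lc3b, of the LC3 branch of the same family and on U74Av2 only, had 3658 and 3834 under lactacystin at 24 h, against 4842 in the control, and 4557 and 4836 at 48 h, against 4766. Both 24 h arrays were below the control, yet its changes of -0.36 ± 0.10 and -0.02 ± 0.10 were not called (adjusted p = 0.0728 and 0.897). Becn1, a subunit of the lipid kinase that starts autophagosomes, had 0.42 ± 0.13 and 0.04 ± 0.13 (adjusted p = 0.103 and 0.876). Without lactacystin 48 h replicate 1 or 2 the 24 h changes of Map1lc3b and Becn1 stayed at -0.36 and 0.42. Both passed the threshold then, but only through the estimated spread, which rested on fewer arrays. Atg5, needed to attach these proteins to lipid, had 0.12 ± 0.17 and -0.08 ± 0.17 (adjusted p = 0.676 and 0.827).

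The effect of lactacystin at 48 h minus that at 24 h was called for 1 of 31 members, against a background of 1.25% of named genes (0.343% with a greater effect at 48 h and 0.902% with a smaller one). This was Sqstm1, whose effect was smaller at 48 h, with a difference of -1.35 ± 0.23 on the log2 scale (adjusted p = 0.0174). That call ended without any 1 of the 4 control arrays (adjusted p = 0.0579 to 0.135). Gabarapl1 had a difference of -0.84 ± 0.20 that was not called (adjusted p = 0.0697), but passed without lactacystin 24 h replicate 1 (adjusted p = 0.0155) and with arrays scaled by their median (0.0151). Tpp1 had 0.56 ± 0.24 and Grn 0.56 ± 0.22, not called (adjusted p = 0.285 and 0.235), so their calls at 48 h alone do not show that the effects of the times differ. The same holds of Ctsa at 0.49 ± 0.22 (adjusted p = 0.284) and Man2b1 at 0.37 ± 0.20 (adjusted p = 0.408).

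Between the lactacystin groups themselves, at 48 h against 24 h, 7 of 31 members were higher and 3 lower, where 6.61% of named genes were higher and 5.58% lower. Enzymes and cofactors of the lumen were higher: Man2b1 by 0.58 ± 0.13 (adjusted p = 0.0153), Gusb by 0.61 ± 0.17 (0.0387), Tpp1 by 0.53 ± 0.15 (0.0479), Grn by 0.53 ± 0.14 (0.0328), Ctsa by 0.48 ± 0.14 (0.0441), Hexa by 0.39 ± 0.11 (0.0430) and Psap by 0.35 ± 0.08 (0.0174). None of these 7 was called for the difference between the effects of the times, so their rise is not shown to exceed that in controls. With 1 array left out, the change in controls was 0.18 to 0.59 for Gusb, 0.10 to 0.32 for Man2b1, 0.10 to 0.23 for Hexa and 0.10 to 0.21 for Psap. It spanned 0 for Tpp1, Grn and Ctsa. The 3 lower members were Sqstm1 at -1.18 ± 0.15 (adjusted p = 0.000494), Ctsc at -0.95 ± 0.22 (0.0189) and Gabarapl1 at -0.69 ± 0.13 (0.00558). Ctsd and Lamp2 were not among the members called, at 0.01 ± 0.15 and 0.25 ± 0.12 (adjusted p = 0.966 and 0.225). Atp6v1a was not called through the set that stood for it, but its set 95745_g_at was lower at 48 h, by -0.49 (adjusted p = 0.0143). With arrays scaled by their median, 1 member was higher and 3 were lower, and with quantile normalisation 3 and 3. Without lactacystin 24 h replicate 3 the calls of Sqstm1 and Gabarapl1 were left, and without replicate 2 those and Ctsc. Without 48 h replicate 1, 2 or 3 of lactacystin 4, 4 and 6 members were called.

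Between controls, at 48 h against 24 h, limma called 0 of the 31 members and 0 of 6984 probe sets, and 0 members had an unadjusted p under 0.05. The log2 changes of the members there ran from -0.23 to 0.58.

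The TCACGTG matches described above can be set beside the calls. Of 8 tested members with a match, 1 was called higher at 24 h (Ctsd) and 2 at 48 h (Ctsa and Ctsd), and their median log2 changes were 0.10 and 0.01. Of 19 tested members with a window and no match, 6 were called higher at each time, with medians of 0.29 and 0.39. Lamp2 and Sqstm1, printed above without capitals, are among these 19, and the pump gene Atp6v1a, with its TCACGTGA, is among those not called. These are counts of letters and calls, and no test of their relation was made.

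Neuronal markers were present, as the labels have it, and some markers of several cell types were called under lactacystin. The marker counts here and in the next paragraph are to be read against all named genes. Of those, 15.3% were called in either direction at 24 h and 10.8% at 48 h. Counts this small were not tested against these shares. Of 12 neuronal markers 9 were tested, and Syt1 and Stmn2 fell at 24 h and Snap25 and Stmn2 at 48 h. The summed neuronal signal was 11266 to 16205 under lactacystin at 24 h, against 16617 to 23430 in controls, and 12684 to 22198 at 48 h, against 20206 to 25360. Of 16 microglial and macrophage markers 15 were measured and 11 tested, of which Cd68 rose at 24 h and Tyrobp, Cd68 and Ctss at 48 h. Cd68 and Ctss are lysosomal genes that are counted again in the lists of other lysosomal genes below. Both are also part of the microglial sum, which is thus not independent of the lysosomal results. The summed signal of the 15 was 1259 to 2160 under lactacystin at 24 h, against 1274 to 1602 in controls, and 1591 to 2754 at 48 h, against 1038 to 1857. Within designs, the 48 h sum was 2754 under lactacystin against 1857 in the control on U74A, and 1591 and 2334 against 1038 on U74Av2, so every lactacystin array was above the control of its design. At 24 h it was 2160 against 1602 on U74A, and 1259 and 1364 against 1274 on U74Av2, where the groups overlapped. Aif1, Itgam, Ptprc and C1qb, defining markers of microglia, lay under the filter on low signal, with means over all arrays of 19.2, 7.97, 9.74 and 48.2.

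Of 10 astrocyte and radial glia markers 6 were tested. Gja1 rose and Gfap and Aqp4 fell at 24 h, and Gfap and Gja1 rose at 48 h. Their summed signal was 11306 to 16199 under lactacystin at 24 h, against 11878 to 17761 in controls, and 15218 to 18455 at 48 h, against 12209 to 18260. Within designs, the 24 h sum was lower under lactacystin, at 16199 against 17761 on U74A and 11306 and 11340 against 11878 on U74Av2. The 48 h sum was higher, at 18455 against 18260 on U74A and 15218 and 16781 against 12209 on U74Av2. Of 12 fibroblast, mural and meningeal markers, which include the neuronal gene Thy1, 9 were tested, and Tagln rose at both times and Acta2 at 48 h. Their sum was 2754 to 3827 under lactacystin at 24 h, against 2398 to 2430, and 3325 to 5123 at 48 h, against 2457 to 2469, with no overlap at either time. The median log2 change of the 9 tested was -0.36 at 24 h and 0.06 at 48 h, so the sum does not describe the list as a whole. The marker call lost most often was that of Snap25 at 48 h, in 14 of 22 alternative settings. Tyrobp and Ctss at 48 h lost theirs in 8 and 7 of 21, and Syt1 and Gfap at 24 h in 7 and 5 of 22. Those of Aqp4 at 24 h and Gfap at 48 h were lost in 0, and the other marker calls at either time in 1 to 3. Oligodendrocyte and endothelial markers had 2 tested genes each, with none called at either time. The part of these cell types in the lysosomal results was not tested. Several members, such as the cathepsins, Grn and Cd63, are also expressed by glia.

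**Figure D4:**
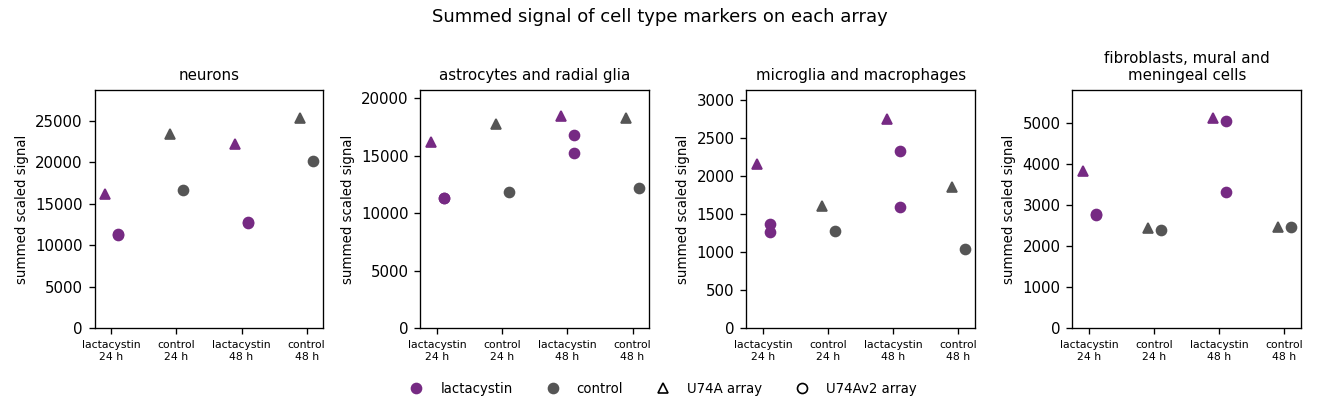
Summed scaled signal (arbitrary units) of the markers of 4 cell types on each array, lactacystin in purple left of control in grey at each time, triangles for U74A and circles for U74Av2. Neuronal sums were lower under lactacystin within each design, microglial sums at 48 h were higher within each design (2754 against 1857 on U74A, 1591 and 2334 against 1038 on U74Av2), and the fibroblast and mural sums were above controls on every lactacystin array. The median log2 change of the 9 tested markers of that last list was -0.36 at 24 h and 0.06 at 48 h.

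Other genes of the pathway, taken from lists of lysosomal, pump and autophagy genes, are given by their counts, to be read against the 15.3% of named genes called in either direction at 24 h and the 10.8% at 48 h. The shares of the first 2 lists were near that background. Of 20 other lysosomal hydrolases and cofactors, 2 rose and 2 fell at 24 h, and 3 rose at 48 h. Sumf1, which activates the sulfatases, rose by 0.90 ± 0.24 and 1.01 ± 0.24 (adjusted p = 0.0290 and 0.0225), and Scpep1, a serine carboxypeptidase, by 0.62 ± 0.15 at 24 h (0.0180). Ids, iduronate sulfatase, had -0.60 ± 0.17 at 24 h (adjusted p = 0.0368) and Pcyox1, which degrades prenylcysteine, -0.39 ± 0.11 (0.0394). At 48 h Smpdl3a rose by 0.78 ± 0.18 (0.0201) and the cysteine protease Ctss by 0.76 ± 0.17 (0.0189).

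Of 27 lysosomal membrane and trafficking genes, 3 rose and 1 fell at 24 h and 3 rose at 48 h. The 3 were the same at both times: Cd68, a glycoprotein of macrophage lysosomes, by 1.41 ± 0.27 and 1.47 ± 0.27 (adjusted p = 0.00521 and 0.00610), Laptm4b, of late endosomes, by 1.02 ± 0.19 and 0.97 ± 0.19 (0.00514 and 0.0100), and Vps4b, the ATPase that recycles the ESCRT machinery, by 0.53 ± 0.12 and 0.42 ± 0.12 (0.0138 and 0.0464). Rab9, which returns mannose 6-phosphate receptors to the Golgi, had -0.47 ± 0.10 at 24 h (0.00834). Of 8 other pump genes, Atp6v0e rose at both times, by 0.84 ± 0.16 and 0.87 ± 0.16 (adjusted p = 0.00456 and 0.00553), and Atp6v1h, a regulatory subunit, at 24 h, by 0.69 ± 0.13 (0.00614). The pump genes called were thus outside the 41 members.

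Of 22 other autophagy genes, 4 rose and 1 fell at 24 h and 1 fell at 48 h. Vcp, an ATPase that extracts ubiquitinated proteins, had the largest rise of these at 24 h, 0.95 ± 0.13 (adjusted p = 0.000655), followed by Wipi2, which recruits the conjugation machinery, at 0.64 ± 0.13 (0.00762). The cargo receptors Tax1bp1 and Nbr1, which act beside Sqstm1, rose by 0.41 ± 0.09 and 0.41 ± 0.11 at 24 h (0.00980 and 0.0259). The kinase gene Ulk2 had -0.62 ± 0.17 at 24 h (0.0291), and Map1lc3a -0.53 ± 0.15 at 48 h (0.0422). Among 5 cystatins and serpins, Cstb, a cytosolic inhibitor of cathepsins, rose by 0.87 ± 0.20 and 0.76 ± 0.20 (adjusted p = 0.0147 and 0.0362), and Serpinb6a, a serine protease inhibitor, by 1.06 ± 0.18 and 0.61 ± 0.18 (0.00256 and 0.0499). At 24 h the secreted inhibitors Cst3, cystatin C, and Serpini1, neuroserpin, which inhibits plasminogen activator rather than cathepsins, had -0.50 ± 0.14 and -0.75 ± 0.14 (0.0325 and 0.00382).

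Many calls ended when 1 control array was left out. Of the 19 at 24 h, 4 were left without control 24 h replicate 2 and 10 without control 24 h replicate 1, and Vcp, Serpinb6a and Serpini1 were kept whichever 1 array was left out. Of the 10 at 48 h, 1 was left without control 48 h replicate 1 and 1 without control 48 h replicate 2. Among the 31 members tested on both designs, all calls at 48 h but that of Lamp2 ended without control 48 h replicate 2 (adjusted p = 0.0510 to 0.244). Without control 48 h replicate 1 those of Ctsa, Ctsc, Tpp1, Hexa and Man2b1 ended (0.0563 to 0.206). Ctsa and Man2b1 also lost theirs without replicate 2 or 3 of lactacystin at either time (0.0565 to 0.105). Control 48 h replicate 2 is the single 48 h control behind the Cd63 call and could not be left out there. At 24 h the calls of Ctsc, Ctsd, Lamp2 and Sqstm1 were kept whichever 1 array was left out. On the U74Av2 arrays alone the calls of Ctsd (0.0612), Ctsz, Hexa and Asah1 at 24 h and of Ctsa, Ctsc, Hexa and Man2b1 at 48 h ended, and without the array design term those at 48 h were Lamp2 and Grn. The Sqstm1 difference between times also ended in both of these (0.137 on U74Av2 alone, 0.506 without the design term).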

How the data were processed

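RNA was hybridised to 10 Affymetrix arrays, 4 of design U74A and 6 of U74Av2. The deposited values are probe set signals on a linear intensity scale, made by the authors with MAS5 per the submitters' processing notes. The MAS5 version and settings are not given in the sources used here. Detection calls were not used. Each array was scaled to a 2% trimmed mean of 500 over the 9977 non-control probe sets of both designs (66 controls left out), log2(signal + 32) was taken, and the 30% of lowest mean signal (under 54.8) were dropped. limma 3.58.1 (lmFit, eBayes with trend) in R 4.3.3, with tables handled in Python 3.11.15, fitted 4 groups and array design, with 5 residual degrees of freedom, and was tested on simulated data with 200 changed probe sets. Members on U74Av2 alone were fitted on the whole U74Av2 table (8695 probe sets tested). The number of arrays limits precision.

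The probe set of highest mean signal stood for a gene. Array values are given for members called in any comparison and for the member of highest signal in a class without one; list genes are named where called. The 41 members, the other gene lists and the tests were chosen with earlier results of these data known. Residual correlations were -0.41 to 0.27 for 13 pairs of same-numbered replicates, against -0.49 to 0.41 for 24 pairs of different number. Each control group holds a single array of each design, so after adjustment for group and design its residuals are exact opposites. These correlations therefore cannot show whether same-numbered replicates deviated together. Same-numbered replicates were not treated as pairs in the main fit, and a replicate block was among the alternatives. Alternatives varied pseudocount, scaling, filter, design term, replicate block and arrays included. Atp6v0c had no probe set of 1 symbol. Promoter windows were found for 34 members.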

Additional observations from a re-analysis of the deposited data

Results flagged for a closer look

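The effect of lactacystin was called as different between the times in 3 genes of the pathway and 2 astrocyte markers. The test was the interaction term of limma with Benjamini-Hochberg adjustment over all probe sets, which called 1.25% of named genes. The 3 were 1 of 31 members, 1 of 8 other pump genes and 1 of 22 other autophagy genes. Of 20 other hydrolases and cofactors and 27 membrane and trafficking genes 0 were called. The markers were 2 of 6 tested. For Sqstm1 the effect at 48 h minus that at 24 h was -1.35 ± 0.23 (log2, SE, adjusted p = 0.0174), and the call was lost in 7 of 21 alternative settings. For the pump subunit gene Atp6v1h it was -0.96 ± 0.19 (adjusted p = 0.0331), and the call was lost in 10 of 21 alternative settings. For Vcp it was -0.88 ± 0.18 (adjusted p = 0.0375), with the call lost in 13 of 21. The astrocyte markers Gfap and Aqp4 differed too, by 2.04 ± 0.21 (adjusted p = 0.00186) and 2.38 ± 0.25 (adjusted p = 0.00186), with effects at 24 h of -0.64 and -1.89 and at 48 h of 1.40 and 0.49. No group held enough arrays to examine single arrays for outlying values.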

How the results depend on the processing

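No member changed direction past the threshold under any alternative. Without the array design term, limma called 3 members at 24 h, 2 at 48 h, 0 for the difference between times and 1 between the lactacystin times, and 248, 110, 2 and 138 probe sets of the whole table, against 8, 9, 1 and 10 members and 1038, 722, 86 and 808 probe sets. On U74Av2 arrays alone there were 4, 5, 0 and 6 members, and 558, 388 and 12 probe sets in the first 3 comparisons. Median scaling gave 2 members and 155 probe sets for the difference and 4 members between the lactacystin times, where quantile normalisation gave 6. With no filter the difference had 48 probe sets and the lactacystin times 5 members. Without the trend in eBayes these were 0 members and 36 probe sets, and 5 members. Arrays of 48 h alone gave 440 probe sets.

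Leaving out 1 array at a time gave 4 to 8 members at 24 h, 1 to 10 at 48 h, 0 to 2 for the difference, 2 to 10 between the lactacystin times and 0 to 0 between controls. The probe sets called then ran over 308 to 1107, 209 to 826, 5 to 186, 329 to 831 and 0 to 2. With the replicate block there were 6, 10, 1, 7 and 0 members, and 780, 536, 60, 565 and 0 probe sets, at 3 residual degrees of freedom. Under the block the calls of Hexa (adjusted p = 0.0790) and Asah1 (0.0564) at 24 h and of Man2b1 (0.0588) at 48 h ended, and Ctsl (0.0358) and Ctsz (0.0441) passed at 48 h. Between the lactacystin times those of Ctsa (0.0618), Hexa (0.0926) and Gusb (0.0706) ended. The causes were not tested.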
